A study of Mus musculus with 28 samples.

Results

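The 9 genes described here encode the liver-enriched transcription factors Hnf4a, Prox1, Onecut1, Onecut2, Foxa1, Foxa2, Foxa3, Cebpa and Cebpb. They were chosen by gene name, and each was found as a single tested row in all 10 deposited tables, so they are 9 of the 47719 genes listed there. The study measured liver RNA by sequencing in 28 male C57BL/6 mice of about 6 weeks at the start, in 7 groups of 4. Lean control mice were fed a diet with 10% of its energy from fat, free of fructose and cholesterol. In the other groups fat supplied 40% of energy, and the food held 22% fructose and 2% cholesterol (by weight). After 26 weeks this diet leads to a fatty, inflamed and scarred liver, nonalcoholic steatohepatitis (NASH). They were then dosed by mouth once a day for 4 weeks. Obeticholic acid (OCA, labelled INT in the tables) was given at 25 mg/kg and tropifexor at a low dose (read as 0.1 mg/kg), a mid dose (0.3 mg/kg) or a high dose (0.9 mg/kg), the amounts being assigned to the group names in rising order, a pairing the labels leave out. Each compound had its own vehicle group, here called the OCA vehicle and the tropifexor vehicle. The titles of the vehicle samples name vehicle while their treatment field lists the drug. The titles were followed, and every drug effect below rests on that reading. Both compounds are agonists of FXR, the bile acid receptor, OCA with the skeleton of a bile acid and tropifexor without it. The labels name no altered gene in these mice.

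Hepatocyte identity is kept by a small network of DNA-binding proteins that bind each other's genes and many liver genes in common. HNF4A, a nuclear receptor, drives genes of lipid, bile acid and amino acid metabolism. PROX1, a homeodomain protein, binds HNF4A and other nuclear receptors as a corepressor, and it also defines lymphatic endothelium. ONECUT1 (HNF6) and ONECUT2 are cut-homeodomain factors active in hepatocytes and in bile duct formation. FOXA1, FOXA2 and FOXA3 are forkhead factors, called pioneers because they can bind closed chromatin and open it. C/EBP alpha supports gluconeogenesis, the urea cycle and lipid metabolism, and C/EBP beta drives acute phase genes in inflammation. FXR lowers bile acid synthesis largely through SHP (Nr0b2), a corepressor that dampens several nuclear receptors, HNF4A among them.

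All values are the authors' deposited values. FPKM counts fragments per length of transcript and per size of library, and each table gives 1 FPKM per group, with no value for any animal. The spread between animals therefore enters only through the authors' test (Cuffdiff), and whether the animals of the groups overlapped cannot be seen. A gene is called here, and said to have risen or fallen, when its deposited q (the p adjusted over all genes tested in that table) was under 0.05. The standard error (SE) after a log2 fold change was derived from the table's fold change, statistic and p. In whole liver, fewer cells of a type and less RNA per cell cannot be told apart. The labelled tissue held its markers: the 9 hepatocyte markers tested summed to between 42610 and 82693 FPKM in any group, and albumin (Alb) was at 55117 FPKM in lean control liver. Within the diet tables this sum went from 78616 FPKM in lean control to 51764 FPKM in the OCA vehicle (0 of 9 higher, 1 lower) and from 79025 to 47564 FPKM in the tropifexor vehicle (0 higher, 6 lower). The same group's FPKM differed between tables by a constant of up to 0.188 (log2), so values are compared only within a table.

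The 2 vehicle groups differed in Onecut1, which bears on every Onecut1 result. Onecut1 stood at 2.72 FPKM in the OCA vehicle group and at 14.6 FPKM in the tropifexor vehicle group, against 8.07 and 8.11 FPKM in lean control in the same tables. The difference between the diet effects was 2.42 (log2, 95% interval 1.26 to 3.57) and was called. It was 1 of 9 factors called, and 0.0985% of all 15230 genes were called in that contrast, or 0.381% with the rescaled standard error, under which Onecut1 was again the 1 factor called. For the other factors the vehicle groups differed by -0.22 to 0.46 (log2), none of them called. A list of 18 circadian clock genes, added after the Onecut1 values were seen, had 0 genes called in this contrast under either error. With so few of all genes called, a count of 0 among 18 says little about these genes. By the normal test of the difference with the rescaled error, 2 of the 18 had an unadjusted p under 0.05, as did 1.81% of all genes. With the implied error 0 did, against 0.315% of all genes.

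Promoter windows of these genes were searched for the factors' motifs, because the factors are known to bind each other's genes. Of the 12 windows 6 held a match, in Hnf4a, Prox1, Foxa1 and Foxa2, and 6 held none, among them every window of Onecut1, Foxa3, Cebpa and Cebpb. RefSeq entries (GRCm38.p6) gave 12 windows for 8 of the 9 genes, each running from 250 bases before the start of transcription to 50 bases into the transcript. Onecut2 had no entry. Both strands were searched for TGTTTAC and TGTTTGC (FOXA), ATTGATT and ATTGACT (ONECUT), CAAAGTCCA and CAAAGGTCA (HNF4), TTGCNNAA (C/EBP), GTTAATNNT (HNF1) and GTCANTGAC (the inverted repeat bound by FXR). No pair of matches in the factors' windows overlapped. Capitals mark a match in the sequences below, which are written 5′ to 3′ on the strand of the gene.
Hnf4a, upstream start, chr2:163506607-163506906, plus strand: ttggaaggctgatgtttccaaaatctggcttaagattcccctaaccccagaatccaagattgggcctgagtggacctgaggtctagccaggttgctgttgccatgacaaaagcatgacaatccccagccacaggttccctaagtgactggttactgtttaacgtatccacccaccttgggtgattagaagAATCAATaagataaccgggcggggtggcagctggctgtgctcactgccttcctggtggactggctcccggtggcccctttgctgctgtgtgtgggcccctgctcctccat
Hnf4a, downstream start, chr2:163546905-163547204, plus strand: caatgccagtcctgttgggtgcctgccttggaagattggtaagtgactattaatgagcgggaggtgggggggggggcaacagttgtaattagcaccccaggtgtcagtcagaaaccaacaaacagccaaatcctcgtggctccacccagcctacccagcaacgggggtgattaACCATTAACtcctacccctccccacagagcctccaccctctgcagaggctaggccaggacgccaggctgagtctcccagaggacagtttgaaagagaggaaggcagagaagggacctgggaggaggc
Prox1, downstream start, chr1:190169466-190169765, minus strand: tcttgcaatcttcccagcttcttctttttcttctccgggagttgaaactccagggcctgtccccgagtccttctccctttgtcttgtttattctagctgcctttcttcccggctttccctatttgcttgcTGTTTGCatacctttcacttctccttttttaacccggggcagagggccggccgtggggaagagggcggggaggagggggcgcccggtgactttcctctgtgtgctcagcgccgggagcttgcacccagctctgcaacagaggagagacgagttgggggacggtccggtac
Foxa1, chr12:57546062-57546361, minus strand: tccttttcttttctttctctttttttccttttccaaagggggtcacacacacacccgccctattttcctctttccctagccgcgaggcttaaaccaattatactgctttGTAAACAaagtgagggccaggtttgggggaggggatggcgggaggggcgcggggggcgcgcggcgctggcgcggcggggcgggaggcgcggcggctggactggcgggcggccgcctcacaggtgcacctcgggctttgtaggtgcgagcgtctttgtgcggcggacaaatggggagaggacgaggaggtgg
Foxa2, most upstream start, chr2:148046920-148047219, minus strand: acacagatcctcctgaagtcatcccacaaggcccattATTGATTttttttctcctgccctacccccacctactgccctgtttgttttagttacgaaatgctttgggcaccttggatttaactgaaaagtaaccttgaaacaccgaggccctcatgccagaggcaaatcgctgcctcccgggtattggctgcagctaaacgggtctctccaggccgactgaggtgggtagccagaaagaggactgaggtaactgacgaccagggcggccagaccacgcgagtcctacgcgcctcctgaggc
Onecut1, chr9:74861671-74861970, plus strand: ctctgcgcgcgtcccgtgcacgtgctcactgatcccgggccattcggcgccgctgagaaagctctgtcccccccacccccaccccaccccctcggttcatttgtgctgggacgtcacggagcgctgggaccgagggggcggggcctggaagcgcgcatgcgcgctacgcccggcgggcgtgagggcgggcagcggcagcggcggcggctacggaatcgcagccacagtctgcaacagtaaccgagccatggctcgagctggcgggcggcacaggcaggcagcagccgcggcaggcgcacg

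The upstream Hnf4a window held an ONECUT motif (ATTGATT, on the opposite strand) at -60 to -54 from the start. The window at the downstream start, the one mainly used in adult liver, held an HNF1 motif (GTTAATNNT, on the opposite strand) at -77 to -69. The ATTGATT motif lies in 2.86% of all 32851 windows of this length and the GTTAATNNT motif in 2.57%. FOXA motifs stood at -120 to -114 in Prox1 (TGTTTGC, in 5.07% of all windows) and at -141 to -135 in Foxa1 (TGTTTAC, in 3.65%). Foxa2 held ATTGATT at -213 to -207, and a further start of Foxa2, whose window is not shown, held ATTGACT (in 1.88% of all windows) and GTTAATNNT. The Onecut1 window matched none of the motifs and held 38 CpG dinucleotides. The median was 7 over all windows and 22.5 over the 12 windows of the factors, and the Cebpb window held 50. No HNF4 motif (0.475% and 0.478% of all windows), C/EBP motif (10.8%) or FXR inverted repeat (0.387%) lay in the 12 windows. A match is a stretch of letters and not a measured binding site.

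The nuclear receptor gene Hnf4a (ENSMUSG00000017950, chr2:163492318-163572910 in the tables, GRCm38) fell in the tropifexor vehicle group and rose under mid and high tropifexor. Lean control liver held 136 FPKM and the tropifexor vehicle 101 FPKM, and the authors' deposited table called the fall (log2 fold change -0.42, SE 0.149, q = 0.0146). In the OCA vehicle group it was 104 FPKM against 135 FPKM in lean control, and the authors' deposited table did not call this (log2 fold change -0.38, q = 0.0956). The vehicle groups stood at 74.5% and 76.7% of lean control. The hepatocyte markers were lower in the same tables, with medians of -0.57 (log2) in the tropifexor vehicle and -0.53 in the OCA vehicle, and their part in the Hnf4a values was not tested.

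Under tropifexor, Hnf4a went from 116 FPKM in vehicle to 161 FPKM at the low dose, from 101 to 221 FPKM at the mid dose and from 105 to 183 FPKM at the high dose. The authors' deposited table called the rise at the mid dose (2.19-fold, log2 fold change 1.13, SE 0.157, q = 3.61e-04) and the high dose (1.74-fold, 0.80, SE 0.154, q = 3.96e-04). The low dose was not called in the authors' deposited table (0.48, SE 0.221, q = 0.141). OCA liver held 104 FPKM against 111 FPKM in its vehicle, and the authors' deposited table gave a log2 fold change of -0.09 (q = 0.999). OCA-treated liver thus stayed at the level of the NASH vehicle groups, at 72.3% of lean control, a fall the authors' deposited table called (q = 0.00117). The mid and high doses stood above lean liver, at 162% and 128% of it, and the authors' deposited table called both (q = 4.18e-04 and 0.00886). Of neighbours in the order of the 7 levels, the OCA vehicle and lean control were the pair whose gap had a 95% interval (rescaled error) without 0.

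Prox1 (ENSMUSG00000010175, chr1:190118035-190217276), the homeodomain partner of HNF4A, rose at the same tropifexor doses and was not called with the diet. The vehicle groups held 14.4 and 12.5 FPKM against 14.8 and 14.9 FPKM in lean control, and neither was called in the authors' deposited table (q = 0.944 and 0.206). Prox1 went from 14.2 to 19.7 FPKM at the low dose, from 12.4 to 26.8 FPKM at the mid dose and from 12.9 to 20.2 FPKM at the high dose of tropifexor. The authors' deposited table called the mid dose (log2 fold change 1.11, SE 0.135, q = 3.61e-04) and the high dose (0.65, SE 0.132, q = 3.96e-04), and not the low dose (0.48, SE 0.184, q = 0.0816). Under OCA it was 14.2 FPKM against 15.4 FPKM in vehicle, with a log2 fold change of -0.11 (q = 0.999) in the authors' deposited table. Against lean liver the mid dose stood at 180% and the high dose at 130%, both called in the authors' deposited table (q = 4.18e-04 and 0.00525). The gap between these neighbouring levels had a 95% interval (rescaled error, no adjustment) without 0. The test of the dose effects against vehicle, given below, did not call Prox1 between high and mid dose under either error. Measured against the OCA vehicle through lean control, the high-dose rise was 0.42 (log2).

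Prox1 is also a lymphatic gene, so markers of that lineage were read beside it. Of the lymphatic endothelial markers, 0 rose against vehicle at any tropifexor dose, and 1 of 6 fell at the low, 2 of 5 at the mid and 3 of 5 at the high dose. Reln was the marker that fell at the low dose, and it fell at the other doses too. Lyve1 fell at the mid and high dose (log2 fold change -0.54 and -0.58 in the authors' deposited table). Reln is also on the list of stellate cell markers, so its fall does not mark lymphatic cells alone. The summed level of the lymphatic markers went from 52.0 to 29.2 FPKM at the low, from 45.5 to 25.3 FPKM at the mid and from 47.3 to 27.3 FPKM at the high dose. No marker was at 0 in both groups. The part of lymphatic cells in the Prox1 values was not tested. Antisense transcripts overlap both genes. Prox1os was at 6.89 and 13.6 FPKM and Hnf4aos at 2.78 and 8.82 FPKM in vehicle and mid-dose liver, and neither was called in the authors' deposited table (q = 0.352 and 0.20). The kit marks strand, but its use in counting was not stated (not given in the sources used here). Reads of Hnf4a and Prox1 may therefore not be told apart from those of their antisense partners.

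**Figure D1:**
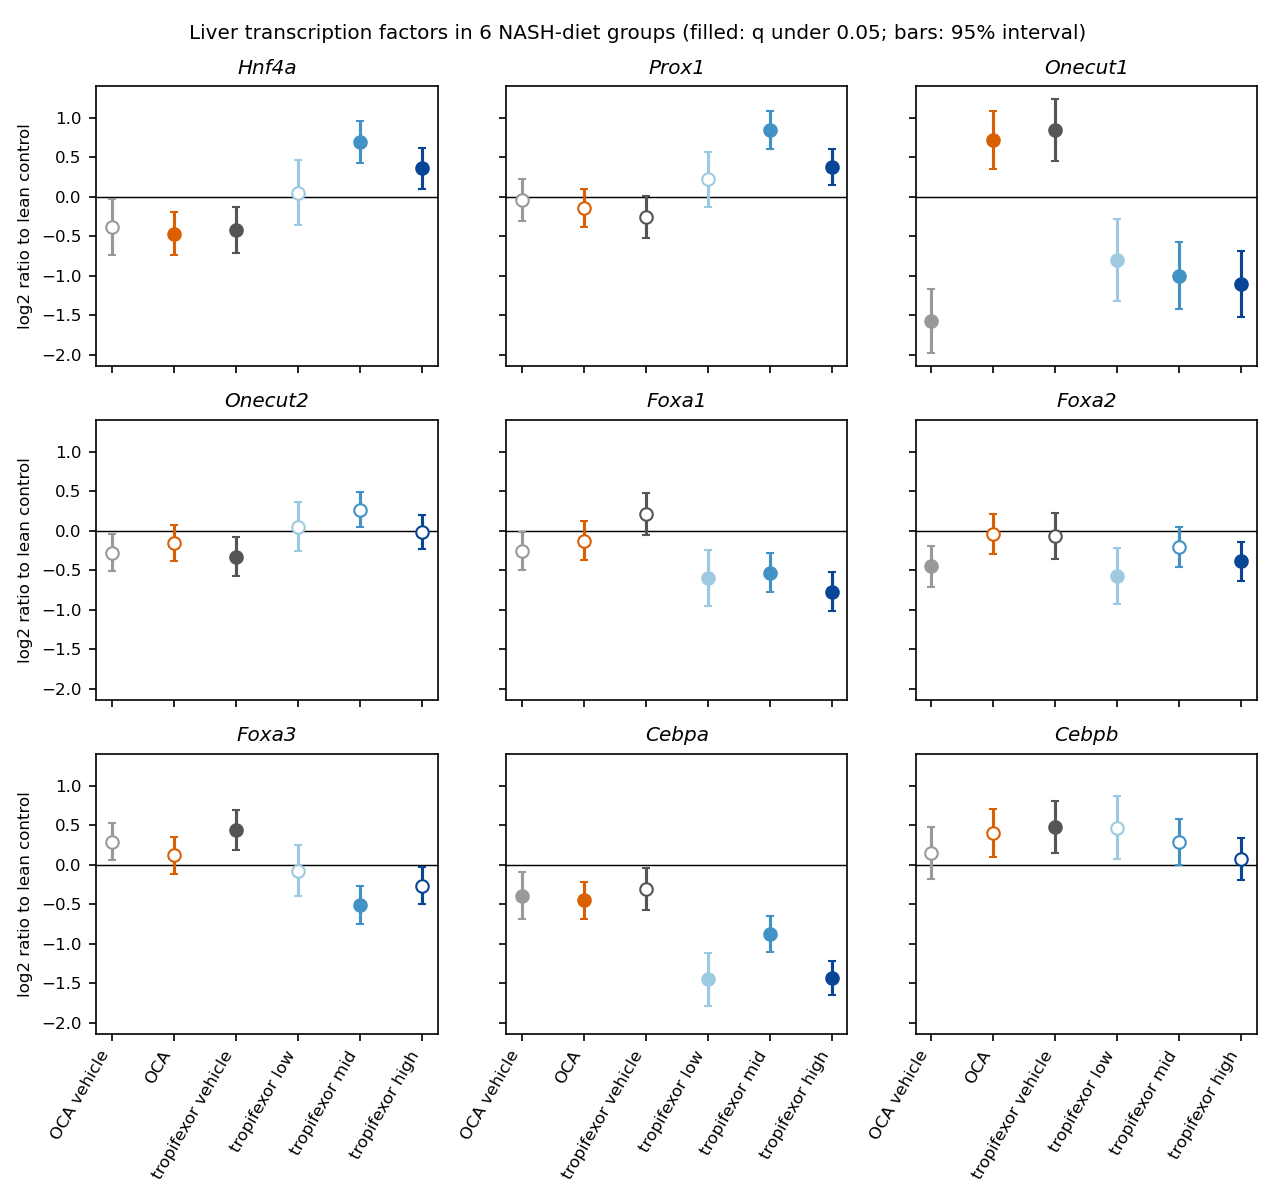
Log2 ratio of each factor's FPKM to lean control in the same table, for the 6 NASH-diet groups on the x axis. Points are group values, filled where q was under 0.05, and bars are 95% intervals from the rescaled standard error. Hnf4a and Prox1 lie above the lean level at the mid and high tropifexor doses, Cebpa lies below it in every group, and Onecut1 lies on opposite sides of it in the OCA vehicle and tropifexor vehicle groups.

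Onecut1 (ENSMUSG00000043013, chr9:74847983-74891781) had the largest change of the 9 factors in each of the 6 diet and drug comparisons, and in both directions. OCA liver held 14.1 FPKM against 2.90 FPKM in its vehicle, and the authors' deposited table called the rise (4.88-fold, log2 fold change 2.29, SE 0.166, q = 0.00268). Tropifexor liver was low: Onecut1 went from 16.6 to 5.33 FPKM at the low dose, from 14.5 to 4.06 FPKM at the mid dose and from 15.1 to 3.97 FPKM at the high dose. The authors' deposited table called all 3 falls (log2 fold change -1.64, SE 0.229, q = 9.68e-04 at the low, -1.84, SE 0.198, q = 3.61e-04 at the mid and -1.93, SE 0.193, q = 3.96e-04 at the high dose). The plot of Onecut1 FPKM in the 10 comparisons shows 2 sets of levels around the lean one: OCA and the tropifexor vehicle above it, the 3 tropifexor doses and the OCA vehicle below it.

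The direction of the Onecut1 drug effects depends on which vehicle group serves as reference. Against lean control in the authors' deposited table, the OCA vehicle had fallen (log2 fold change -1.57, SE 0.208, q = 5.88e-04) and the tropifexor vehicle had risen (0.85, SE 0.202, q = 0.00358). Set against the other vehicle group through the shared lean control, an alternative added after seeing these values, the OCA effect became -0.13 and the tropifexor effects became 0.77 at the low, 0.57 at the mid and 0.47 at the high dose (log2). Against lean control itself, OCA stood at 165% of the lean level (q = 0.0158 in the authors' deposited table), and the low, mid and high doses were at 57.3%, 50.1% and 46.6% (q = 0.0477, 4.18e-04 and 3.46e-04 in the authors' deposited table). In the order of levels, the gaps from lean control to the low dose below it and to OCA above it had 95% intervals (rescaled error) without 0. Those between other neighbours did not. The overlapping lincRNA Gm20649, on the same strand, stayed between 0.148 and 0.490 FPKM and was not called in any table.

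**Figure D2:**
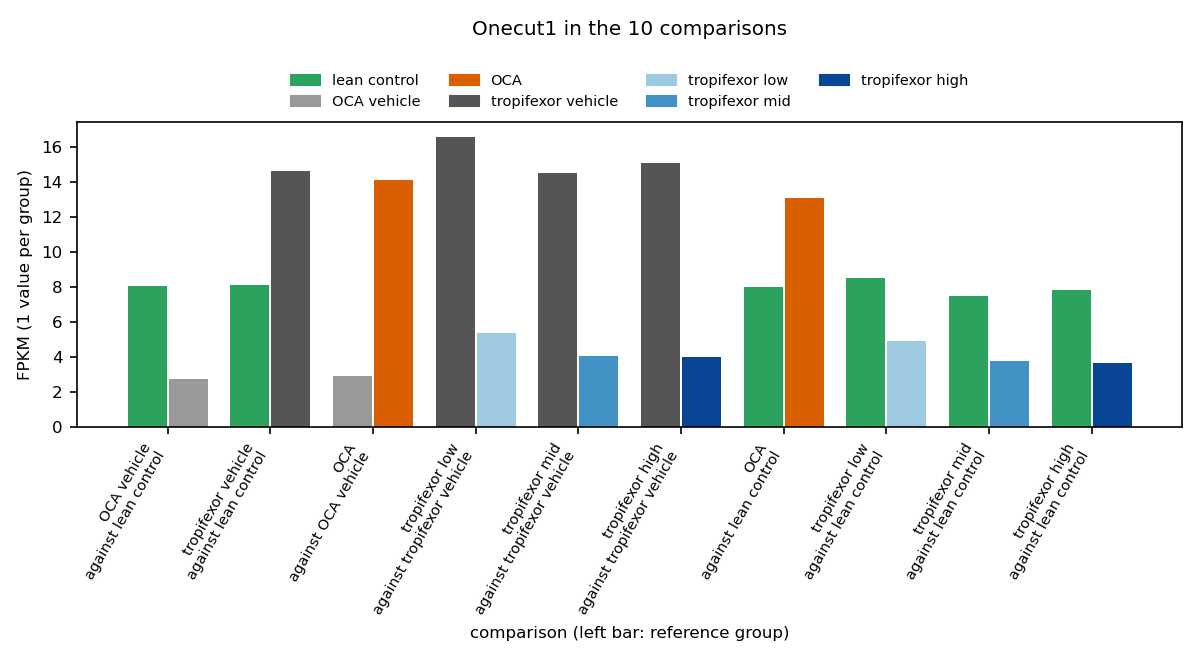
Onecut1 FPKM (y axis, the authors' group values) in the 10 comparisons on the x axis, the left bar of each pair being the reference group. Values carry no error bar because the tables hold 1 value per group. OCA (13.1 and 14.1 FPKM) and the tropifexor vehicle (14.5 to 16.6 FPKM) stand above lean control (7.50 to 8.51 FPKM), and the OCA vehicle (2.72 and 2.90 FPKM) and the tropifexor doses (3.65 to 5.33 FPKM) stand below it.

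Onecut2 (ENSMUSG00000045991), the related cut-homeodomain gene, went the other way under tropifexor. It was at 5.93 FPKM in lean control and 4.73 FPKM in the tropifexor vehicle, a fall called in the authors' deposited table (log2 fold change -0.33, SE 0.126, q = 0.0482). The OCA vehicle held 4.88 FPKM against 5.90 FPKM, and this was not called in the authors' deposited table (-0.27, q = 0.114). Onecut2 rose from 4.70 to 7.13 FPKM at the mid dose (0.60, SE 0.127, q = 3.61e-04 in the authors' deposited table) and from 4.89 to 6.14 FPKM at the high dose (0.33, SE 0.125, q = 0.0386 in the authors' deposited table). In vehicle and drug liver it was 5.38 and 7.01 FPKM at the low dose (0.38, q = 0.163) and 5.20 and 5.63 FPKM under OCA (0.11, q = 0.999), neither called in the authors' deposited table. No drug group differed from lean control in the authors' deposited table, where Onecut2 stood at 89.9% to 120% of the lean level, and the gap between every pair of neighbouring levels had a 95% interval that included 0.

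Both ONECUT genes are also active in bile duct cells, and cholangiocyte markers moved in these comparisons. The summed level of the 10 listed cholangiocyte markers went from 54.0 to 148 FPKM in the OCA vehicle and from 54.3 to 193 FPKM in the tropifexor vehicle, with 5 of 9 tested markers higher and 1 lower in each. It went from 157 to 246 FPKM under OCA (4 of 9 higher, 0 lower), where Krt23 led (log2 fold change 2.07, q = 0.00268 in the authors' deposited table). It went from 219 to 370 FPKM at the low dose (7 of 10 higher, 0 lower), from 192 to 122 FPKM at the mid dose (1 of 9 higher, 3 lower) and from 199 to 173 FPKM at the high dose (1 higher, 1 lower). Against the same vehicles Onecut1 rose under OCA and fell at every tropifexor dose, directions that depend on the vehicle group used, as given above. The part of bile duct cells in the ONECUT values was not tested. Krt7 and Krt19 were measured in every table and no listed marker was at 0 in both groups.

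Foxa1 (ENSMUSG00000035451, chr12:57540631-57546121) fell at every tropifexor dose. It went from 8.18 to 4.68 FPKM at the low dose, from 7.14 to 4.29 FPKM at the mid dose and from 7.44 to 3.81 FPKM at the high dose. The authors' deposited table called all 3 (log2 fold change -0.80, SE 0.190, q = 9.68e-04; -0.74, SE 0.138, q = 3.61e-04; and -0.96, SE 0.137, q = 3.96e-04). The diet groups were not called in the authors' deposited table: 5.18 against 6.17 FPKM in the OCA vehicle (q = 0.174) and 7.17 against 6.20 FPKM in the tropifexor vehicle (q = 0.331). OCA was at 6.01 against 5.52 FPKM (0.12, q = 0.992 in the authors' deposited table). Against lean control Foxa1 stood at 66.1%, 69.2% and 58.7% at the low, mid and high dose, each called in the authors' deposited table (q = 0.00748, 4.18e-04 and 3.46e-04). Measured against the OCA vehicle through lean control, the falls were smaller, at -0.34, -0.28 and -0.52 (log2).

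Foxa2 (ENSMUSG00000037025, chr2:148042877-148046969), known for its part in fasting metabolism and bile acid homeostasis, was called in 1 vehicle group and in no comparison of a drug with its vehicle. It fell in the OCA vehicle, from 18.3 to 13.4 FPKM (log2 fold change -0.45, SE 0.133, q = 0.00781 in the authors' deposited table), and was at 17.5 against 18.4 FPKM in the tropifexor vehicle (-0.07, q = 0.870 in the authors' deposited table). No drug effect on Foxa2 was called in the authors' deposited table: 18.9 against 14.3 FPKM under OCA (0.40, SE 0.132, q = 0.0634), 14.1 against 20.0 FPKM at the low dose (-0.50, q = 0.0776), 15.9 against 17.5 FPKM at the mid dose (-0.13, q = 0.596) and 14.7 against 18.2 FPKM at the high dose (-0.31, q = 0.120). Against lean control it was lower at the low dose (67.4%, q = 0.0105 in the authors' deposited table) and the high dose (76.5%, q = 0.0119 in the authors' deposited table).

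Foxa3 (ENSMUSG00000040891, chr7:19013284-19023538), the member of the trio known for a part in fasting glucose control, rose in the tropifexor vehicle and fell with tropifexor. It was at 14.0 FPKM in the tropifexor vehicle against 10.3 FPKM in lean control (log2 fold change 0.44, SE 0.130, q = 0.00424 in the authors' deposited table). The OCA vehicle held 12.6 against 10.3 FPKM, and the authors' deposited table did not call it (0.29, q = 0.0760). It fell from 16.0 to 11.2 FPKM at the low dose, from 13.9 to 7.27 FPKM at the mid dose and from 14.5 to 9.0 FPKM at the high dose. The authors' deposited table called these (-0.51, SE 0.176, q = 0.0457; -0.94, SE 0.135, q = 3.61e-04; and -0.69, SE 0.131, q = 3.96e-04). Under OCA it was 11.9 against 13.4 FPKM (-0.18, q = 0.786 in the authors' deposited table). The mid dose stood below lean liver, at 70.4% (q = 4.18e-04 in the authors' deposited table), while the high dose at 83.2% and the low dose at 95% were not called there.

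Cebpa (ENSMUSG00000034957, chr7:35118044-35121928) stood below lean liver in all 6 NASH-diet groups, called in 5 of them, and was lowest under tropifexor. Lean control held 139 FPKM, the OCA vehicle 106 FPKM and the tropifexor vehicle 113 FPKM in the 2 diet tables. The authors' deposited table called the fall in the OCA vehicle (log2 fold change -0.39, SE 0.150, q = 0.0478) and not that in the tropifexor vehicle (-0.31, SE 0.133, q = 0.0941). The median hepatocyte marker was at -0.53 and -0.57 (log2) in these tables, and its part in the Cebpa values was not tested. Tropifexor lowered it further: from 128 to 58.1 FPKM at the low dose, from 112 to 75.9 FPKM at the mid dose and from 117 to 54.0 FPKM at the high dose. All 3 falls were called in the authors' deposited table (-1.14, SE 0.184, q = 9.68e-04; -0.56, SE 0.132, q = 3.61e-04; and -1.11, SE 0.130, q = 3.96e-04). OCA liver held 108 FPKM against 113 FPKM in its vehicle (-0.07, q = 0.999 in the authors' deposited table). Relative to lean control, Cebpa was at 36.5% at the low, 37.0% at the high, 54.5% at the mid dose and 73.1% under OCA, all called in the authors' deposited table. With the rescaled error and no adjustment, the gaps from the mid dose to the high dose below it and to OCA above it had 95% intervals without 0. The gap between low and high dose did not. The test of the dose effects against vehicle, given below, did not call Cebpa between high and mid dose under either error. The antisense gene Gm45091 overlaps Cebpa, and its reads may likewise not be told apart.

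Cebpb (ENSMUSG00000056501), the inflammatory partner of Cebpa, was called in 1 of the 10 comparisons, as higher in the tropifexor vehicle. It stood at 27.5 FPKM there against 19.6 FPKM in lean control (log2 fold change 0.48, SE 0.168, q = 0.0270 in the authors' deposited table), and at 21.6 against 19.5 FPKM in the OCA vehicle (0.15, q = 0.722 in the authors' deposited table). The difference between these diet effects was 0.34 (95% interval -0.61 to 1.29) and was not called. No drug effect on it was called: in vehicle and drug liver the authors' deposited table gave 31.3 and 31.0 FPKM at the low dose (q = 0.991), 27.4 and 24.0 FPKM at the mid dose (q = 0.495), 28.5 and 21.7 FPKM at the high dose (-0.40, q = 0.0561) and 23.1 and 27.4 FPKM under OCA (q = 0.825). The Cebpb row of the tables spans 137105 bases, against 1504 bases of the annotated gene, and covers Tmem189 on the opposite strand. Tmem189 went from 13.0 to 2.64 FPKM at the high dose (log2 fold change -2.30, q = 3.96e-04 in the authors' deposited table), so the values of Cebpb are uncertain.

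Both C/EBP genes are also expressed in myeloid cells, and macrophage and monocyte markers moved with the diet and with tropifexor. The summed level of the 10 markers tested went from 159 to 345 FPKM in the OCA vehicle (8 higher, 1 lower) and from 160 to 336 FPKM in the tropifexor vehicle (7 higher, 0 lower). It went from 383 to 434 FPKM at the low dose (2 higher, 0 lower), from 334 to 183 FPKM at the mid dose (1 higher, 8 lower), from 348 to 256 FPKM at the high dose (1 higher, 6 lower) and from 367 to 286 FPKM under OCA (1 higher, 3 lower). Against lean control the sum went from 167 to 399 FPKM at the low, from 148 to 169 FPKM at the mid and from 154 to 236 FPKM at the high dose. Cebpa stood at 36.5%, 54.5% and 37.0% of lean liver at these doses. No marker was at 0 in both groups. The part of these cells in the C/EBP values was not tested.

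**Figure D3:**
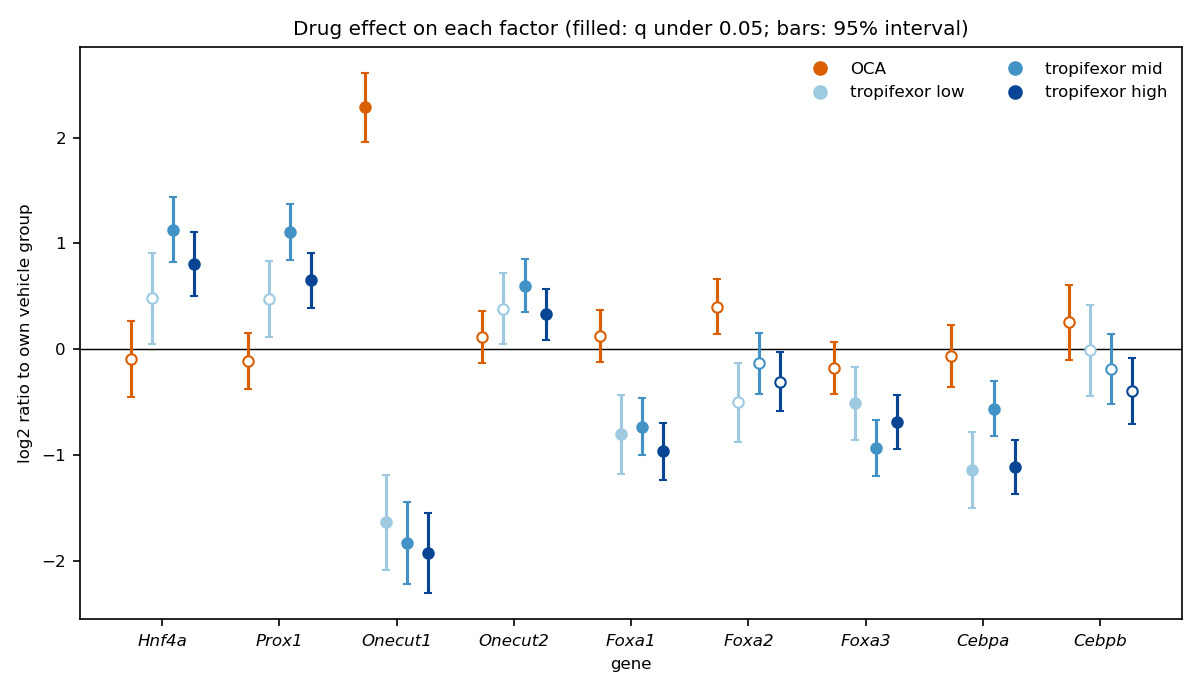
Log2 ratio of each drug group to its own vehicle group (y axis) for the 9 factors on the x axis. Filled points had q under 0.05 and bars are 95% intervals from the rescaled standard error. At the mid and high tropifexor doses Hnf4a, Prox1 and Onecut2 lie above 0 and Onecut1, Foxa1, Foxa3 and Cebpa below it, while under OCA Onecut1 is the filled point, at 2.29.

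Counted over the 9 factors, calls went in both directions at the mid and high tropifexor doses. At the low dose every called factor fell, and under OCA only 1 factor was called. In the OCA vehicle 0 rose and 3 fell, against 11.4% and 6.56% of all tested genes, and the median factor was at -0.27 (log2) against 0.02 over all genes. In the vehicle group of tropifexor there were 3 that rose and 2 that fell, against 12.1% and 8.53% of all genes. Under OCA 1 rose and 0 fell, against 1.81% and 2.23% of all genes, and 2 of the 9 had an unadjusted p under 0.05 (Onecut1 and Foxa2), as did 10.8% of all genes. At the low dose 0 rose and 4 fell (6.03% and 5.20% of all genes). Hnf4a, Prox1 and Onecut2 were not called there but lay above vehicle, at 0.48, 0.48 and 0.38 (log2). That is the direction of their calls at the mid and high doses. At the mid dose 3 rose and 4 fell (11.8% and 15.7%), and at the high dose again 3 rose and 4 fell (9.93% and 15.5%). The comparisons of the 3 doses share their vehicle animals, so their counts are not independent of each other. All of these counts are from the authors' deposited tables.

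Each drug group was also compared with lean control. The authors' deposited tables called 1 factor higher and 2 lower under OCA (10.3% and 6.50% of all genes), 0 higher and 4 lower at the low dose (13.8% and 10.1%), 2 higher and 4 lower at the mid dose (11.7% and 11.5%) and 2 higher and 4 lower at the high dose (12.2% and 15.2%). Hnf4a and Prox1 were the factors above lean liver at the mid and high doses, and Onecut1 was the factor above it under OCA.

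The doses of tropifexor were compared by the difference of their effects, using the standard errors implied by the authors' fold changes and statistics. By this normal test with Benjamini-Hochberg adjustment, 0 of the 9 factors differed between high and low dose (0.278% of all genes did), between high and mid dose (0.319%) or between mid and low dose (0.423%), and 0 had an unadjusted p under 0.05 (2.46%, 1.55% and 4.41% of all genes). With the rescaled error, which is narrower, again 0 were called (5.63%, 2.32% and 10.3% of all genes), and 0, 2 and 3 factors had an unadjusted p under 0.05 (13.8%, 7.21% and 18.7% of all genes). The largest dose differences were those of Hnf4a and Prox1 between mid and low dose, at 0.65 (95% interval -0.44 to 1.73) and 0.63 (-0.28 to 1.55), and of Cebpa, at 0.58 (-0.33 to 1.49) between mid and low and -0.55 (-1.29 to 0.19) between high and mid. A difference of more than 1 (log2) between mid and low dose lies within the intervals of all 3 genes.

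The effect of high-dose tropifexor was set against that of OCA, each relative to its own vehicle and at doses that are not matched. Onecut1 differed by -4.22 (log2, 95% interval -5.23 to -3.20), and was the 1 factor of 9 called with the implied error, as were 1.69% of all genes. That value includes the difference between the vehicle groups given above, as do the values of the other factors. After Onecut1 the vehicle groups differed most in Foxa1 (0.46) and Foxa2 (0.38, log2), the tropifexor vehicle being higher. Against lean control, with no vehicle involved, Foxa1 was at 58.7% at the high dose and 91.7% under OCA, and Foxa2 at 76.5% and 97.1%. For Foxa1 the difference was -1.09 (-1.83 to -0.34), for Cebpa -1.05 (-1.84 to -0.26), for Hnf4a 0.89 (-0.06 to 1.85) and for Prox1 0.77 (0.01 to 1.52), none of them called. With the rescaled error 7 of 9 were called, against 11.4% of all genes: Hnf4a and Prox1 higher, and Onecut1, Foxa1, Foxa2, Foxa3 and Cebpa lower, under tropifexor. Onecut1 was called under both errors, and the other 6 calls rest on which error is used.

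Other regulators of hepatocyte genes were read from a list of 40, of which 38 were tested. At the mid dose 10 rose and 8 fell, at the high dose 6 rose and 11 fell, and at the low dose 5 rose and 9 fell in the authors' deposited tables, with medians of -0.03, -0.11 and -0.14 (log2). SHP (Nr0b2) rose at each dose, with log2 fold changes of 1.87, 2.55 and 2.63 at the low, mid and high dose in the authors' deposited tables, and the xenobiotic receptor Nr1i2 (PXR) by 2.23 at the mid and 1.85 at the high dose. The FXR gene itself (Nr1h4) fell by 1.70 at the high dose, and the clock-controlled repressor Nfil3 fell by 2.31, in the authors' deposited table. Under OCA 4 rose and 1 fell, with Bcl6, a repressor, at -1.24 and Nr0b2 at 0.75 in the authors' deposited table. In the vehicle groups 4 rose and 2 fell (OCA) and 3 rose while 6 fell (tropifexor). In both, the proliferation factor Foxm1 (2.25 and 2.41) and the coactivator Ppargc1a (-0.99 and -1.39) led in the authors' deposited tables.

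**Figure D4:**
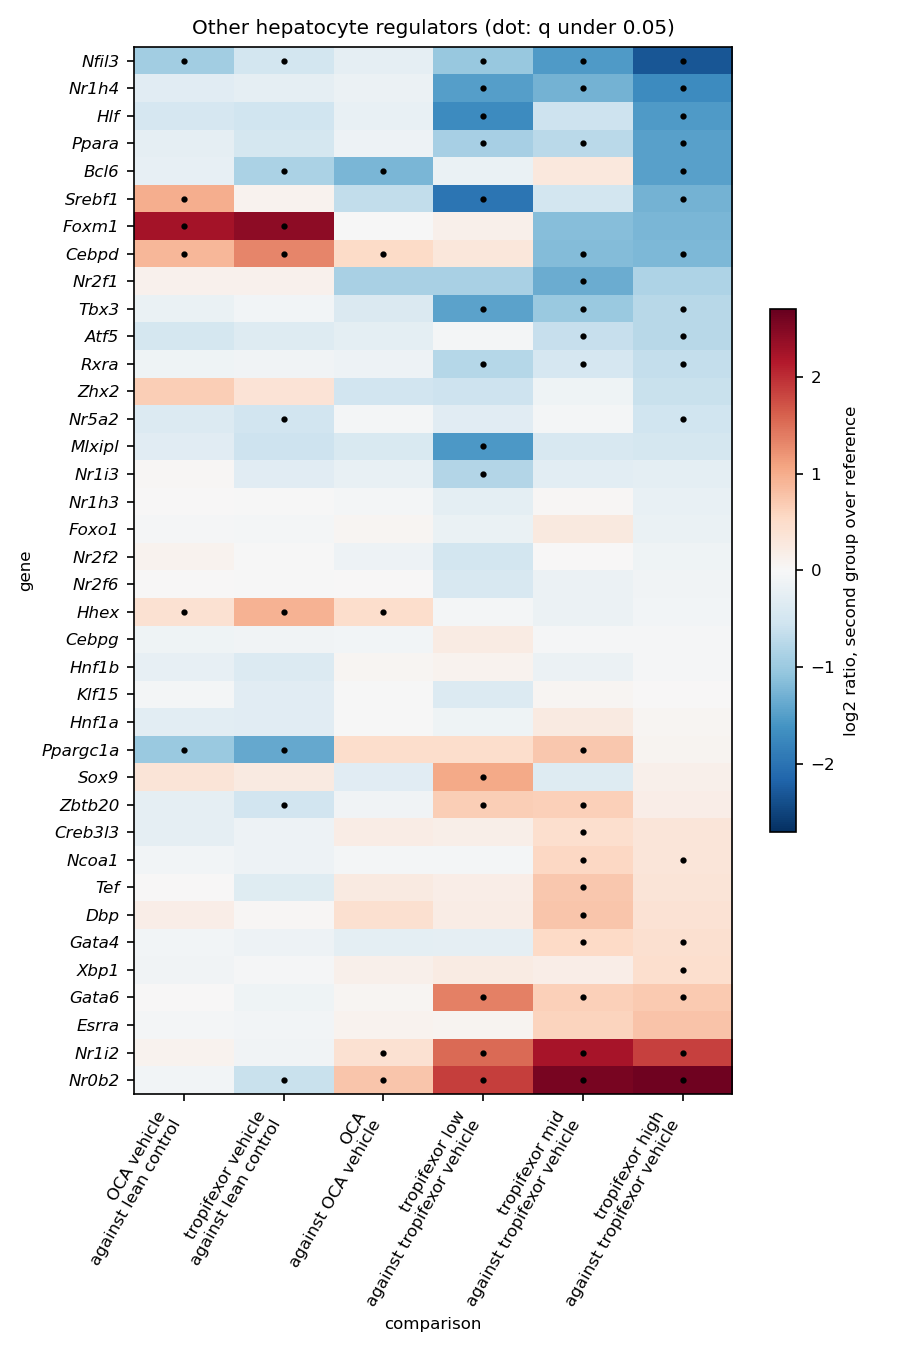
Log2 ratio of the second group to the reference (colour) for 38 other regulators (y axis) in the 6 diet and drug comparisons (x axis), ordered by the high-dose value, with a dot where q was under 0.05. Nr0b2 and Nr1i2 are highest at the mid and high tropifexor doses, and Nfil3 and Nr1h4 are lowest at the high dose.

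Genes known as targets of the factors did not all move with the factor's own level. The shares of all tested genes called in each comparison, given above beside the counts of the 9 factors, apply to the target lists too. Of 24 HNF4A targets, the authors' deposited tables had 0 higher and 8 lower in the OCA vehicle and 1 higher and 12 lower in the tropifexor vehicle, where Hnf4a was lower too. At the mid dose 9 rose and 3 fell (11.8% and 15.7% of all tested genes). At the high dose 3 rose and 8 fell (9.93% and 15.5%), although Hnf4a rose at both doses. The 3 that fell at the mid dose and the 3 that rose at the high dose are near these shares. The bile acid 12-alpha-hydroxylase gene Cyp8b1, which SHP represses, was at -5.04 at the mid and -8.55 at the high dose, the bile acid importer Slc10a1 at -3.35 at the high dose, and the glucose transporter Slc2a2 at 1.17 at the mid dose (log2, the authors' deposited tables). Under OCA 1 rose and 2 fell and at the low dose 0 rose and 7 fell. Of 6 genes tied to PROX1 and HNF4A together (partners, corepressors and Cyp7a1), 0, 1 and 0 rose and 1, 1 and 2 fell at the low, mid and high dose.

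Of 12 FOXA targets, the authors' deposited tables had 1 higher and 3 lower in the OCA vehicle, 1 and 7 in the tropifexor vehicle, 1 and 0 under OCA, and 2 and 1, 4 and 3, and 2 and 3 at the low, mid and high dose. The insulin-regulated Igfbp1 was at 1.0 at the low dose and at -2.14 and -2.21 at the mid and high doses, while Foxa1 and Foxa3 were lower at all 3. Of 10 ONECUT targets 1 rose and 2 fell under OCA and 2 and 3, 5 and 3, and 3 and 3 at the low, mid and high dose. Among them was the bile acid synthesis gene Cyp7a1, at -1.49 under OCA and at -4.17, -3.24 and -6.03 at the 3 doses (log2, the authors' deposited tables). Against the same vehicles Onecut1 rose under OCA and fell at the 3 doses, directions that reverse against the other vehicle group.

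The metabolic and the acute phase targets of C/EBP proteins differed in count. Of 14 metabolic targets, 0 rose and 3 fell in the OCA vehicle, and 0 were higher and 6 lower in the tropifexor vehicle, 2 rose and 2 fell under OCA and at the low dose, 7 rose and 2 fell at the mid dose and 4 rose and 2 fell at the high dose in the authors' deposited tables. The urea cycle gene Ass1 rose by 1.74 and 1.33 (log2) at the mid and high dose, where Cebpa fell. Of 15 acute phase targets 6 rose and 1 fell in the OCA vehicle, and 7 were higher and 4 lower in the tropifexor vehicle. At the mid dose 0 rose and 8 fell and at the high dose 0 rose and 10 fell, led by Saa2 at -3.42 and -4.75 (log2, the authors' deposited tables). Cebpb itself was not called at these doses. Under OCA 0 rose and 2 fell, and at the low dose 1 rose and 2 fell. Stellate cell markers had 3 of 7 higher and 0 lower in each vehicle group, and 0 higher and 3, 5 and 5 lower at the low, mid and high dose. Of the 9 hepatocyte markers, 0 rose and 2 fell at the low dose, and 2 rose and 2 fell at each of the mid and high doses. Against lean control 0 rose in any drug group, while 4 fell under OCA and 3, 4 and 5 at the low, mid and high dose (the authors' deposited tables). Against its vehicle, 0 of 9 were called under OCA by the authors' Cuffdiff test, with 0 at an unadjusted p under 0.05.

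The genes most like each factor were found by the root mean square difference of log2 fold change over the 6 diet and drug comparisons, among 10768 genes. Nearest to Hnf4a were Insig2 (0.0964), B230206L02Rik (0.115) and Slc6a12 (0.139), and nearest to Prox1 were Lnx2 (0.0620), Glt1d1 (0.0772) and Caprin1 (0.109). Hnf4a and Prox1 differed from each other by 0.169. Cebpa lay nearest to Lipe (0.0872), Acsl1 (0.122) and Prob1 (0.128), Foxa3 to Arhgef40 (0.0575), Fhod1 (0.0898) and Mgat5 (0.0933), and Foxa1 to Armc9 (0.125), Chn2 (0.131) and Arhgap24 (0.153). Onecut2 had the closest neighbours, Atl3 (0.0433), Cdk8 (0.0470) and Ahctf1 (0.0507). Onecut1, the factor with the largest changes, had the largest distances, to the small RNA gene Mir130c (0.897), Gm23458 (0.918) and Arid5b (0.936). The distance is not scaled to the size of a gene's changes, so near and far neighbours partly reflect that size. Several of these comparisons share animals, so the distances describe the tables and carry no test.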

How the data were processed

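Liver RNA of 28 mice in 7 groups of 4 was sequenced from stranded mRNA libraries, per the labels' protocols. The submitters' processing notes name bcl2fastq, STAR 2.5.1b, Cuffnorm, Cufflinks 2.2.1, Cuffdiff and build GRCm38, with no role or order. The labels name no batch, and depth per sample is unknown. The FPKM values are those the authors deposited for each group, 1 per group and table, per the file headers. The p-value and q-value of each gene are the authors' deposited Cuffdiff output, with 5e-05 the smallest p. The log2 fold change and the test statistic, handled as score columns because some fold changes are not finite, are the authors' deposited values per the file headers.

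Each table tested 15208 to 16144 genes, and all 9 factors were tested in each. A gene was called at status OK and q under 0.05. No test over animals could be run. Effects were compared as differences of log2 fold changes. Each fold change divided by its statistic gave the implied standard error. The variances of both effects were summed, and the normal p-value of the difference was corrected by Benjamini-Hochberg over all genes usable in both tables. Summed variances are conservative where effects share a group. In the median gene, z computed from the deposited p exceeded the statistic by a factor of 2.03 to 2.05. Dividing the implied error by this factor gave the rescaled error, an alternative that is also printed beside single fold changes. Simulated data with known changes were used to test the code. Other alternatives were a stricter q, an unadjusted p, an FPKM minimum of 1, a pseudocount of 1, centring on all or reference genes, and the other vehicle group.

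Members, lists and tests were chosen with earlier results of these data known. All members are named in every comparison. From each list up to 4 called genes with the largest fold change could be named per comparison, and for factors called in at least 2 of 6 comparisons the 3 most like genes. Genes overlapping a factor were added after seeing the data. List symbols not found on exactly 1 row (Lsd1, Tf, Itgam, Ccl21a and Gm45091) were left out. Scripts used Python 3.11.15, numpy 2.4.6, pandas 2.3.3, scipy 1.17.1 and matplotlib 3.10.9.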

Additional observations from a re-analysis of the deposited data

Results flagged for a closer look

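The diet effect on Onecut1 differed between the vehicle groups by 2.42 (log2, 95% interval 1.26 to 3.57), a fall of 1.57 in the OCA vehicle and a rise of 0.85 in the tropifexor vehicle, both against the same lean animals. It was picked out because the test of the difference itself called it.

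The effect of high-dose tropifexor on Onecut1 differed from that of OCA by -4.22 (log2, 95% interval -5.23 to -3.20), each against its own vehicle. It was picked out by the same test. Against lean control, with no vehicle involved, Onecut1 was at 46.6% at the high dose and at 165% under OCA.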

How the results depend on the processing

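No paired analysis was possible because the tables hold group values and no animal can be matched to another, so neither the replicate block nor leaving out an animal was run. Depth is unknown, and what 4 animals per group limit is seen only in the width of the intervals. A q under 0.01 kept 36 of the 46 calls over the 10 comparisons, in which 2.34% to 20.7% of all tested genes passed it. It left 2 of 5 calls in the tropifexor vehicle (14.8% of all tested genes) and 2 of 4 at the low dose against lean control (17.4%). Also lost were Cebpa in the OCA vehicle, Foxa3 at the low dose and Onecut2 at the high dose against vehicle. Against lean control, Onecut1 under OCA and Foxa2 at the high dose were lost. At an unadjusted p under 0.05 the counts were 7 in the OCA vehicle (3 as reported, 26.1% of all tested genes), 2 under OCA (1 as reported, 10.8%) and 8 at the low dose against vehicle (4 as reported, 20.1%). The rescaled error gave 7 calls between high-dose tropifexor and OCA in place of 1, and the other 4 difference counts were the same. Against the other vehicle group, an alternative chosen after seeing the data, Onecut1 reversed to -0.13 under OCA and to 0.77, 0.57 and 0.47 at the low, mid and high dose. Of the 36 drug effects of the factors, 18 more moved by over 1 rescaled error, with no called value changing sign, and a pseudocount of 1 moved 6 of 90 values, of Onecut1 and Foxa1, with the same direction. The cause was not tested. The FPKM minimum changed no count of factors. Centring on all tested or on reference genes moved each value by less than 1 rescaled error and changed no direction of a called value. Values near 0 that were not called could change sign. Onecut2 at the high dose against lean control (-0.02) lay above the median of all tested genes there (-0.04), so centring turned its sign. Medians of all tested genes lay between -0.050 and 0.019 (log2).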
